A study of Mus musculus with 4 samples.

Results

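In mouse ID8 ovarian cancer cells, 32 of the 22063 genes of the expression table were counted in both control libraries and were at or near 0 in both USP9X knockdown libraries. They were chosen by their read counts in these same libraries, with 10 or more rounded counts in both shCtrl libraries and 3 or fewer in both shUSP9X libraries. Their low counts after knockdown are therefore a description, and no test is given for any of them. Among the 32 were a group of C2H2 zinc finger genes (Zfp976, Zfp977, Zfp947, Gm14403, Gm14322, 6720489N17Rik and Peg3), the mucin genes Muc16 and Muc2, and genes for ion channels and signalling proteins that are best known from neurons. What the rule did not use, namely the neighbouring genes, the relatives, the promoter sequence and the base composition, is described beside them.

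ID8 is a line of transformed mouse ovarian surface epithelial cells. RNA came from ID8 cells labelled WT with a control shRNA (shCtrl, 2 libraries) and from ID8 cells labelled as a USP9X knockdown with an shRNA against USP9X (shUSP9X, 2 libraries). In the study, shRNAs were delivered by lentivirus from the pLKO.1-puro vector, which integrates into the genome and carries puromycin resistance. The methods point to a supplementary table of shRNA sequences, which was not used here. The labels do not say which shRNA these libraries carry. The titles number the shUSP9X libraries as replicates, but their library names could also stand for clones or hairpins. Neither labels nor methods give a TGF-β or oxygen treatment of the sequenced cells, or say whether the 2 libraries of a group came from separate cultures. The p-values below thus measure only the spread between these libraries. The 4 libraries held 17232006 and 15611363 estimated counts in shCtrl and 19978889 and 17021261 in shUSP9X. On the CPM scale (counts per 1000000 counts, scaled to the TMM-adjusted library sizes), a count of 3 stood for 0.173 and 0.190 in shCtrl and for 0.152 and 0.178 in shUSP9X. A gene at 0 in a library may have been present up to that level.

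USP9X is a deubiquitinase, an enzyme that removes ubiquitin from other proteins and so can spare them from the proteasome. C2H2 zinc finger proteins form the largest family of DNA-binding proteins in mammals. Many carry a KRAB domain, which recruits the corepressor TRIM28 and silences transposable elements, and their genes lie in tandem clusters of closely similar copies. Mucins are long glycosylated proteins of epithelial surfaces, and MUC16 is the protein that carries the CA125 antigen followed in the blood of patients with ovarian cancer.

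The label of the knockdown was checked first on its target. Usp9x (X chromosome) gave 5169 and 4453 counts with the control shRNA, and 390 and 346 with shUSP9X. Its level was 290 ± 11.6 CPM (SD, n = 2) in shCtrl and 20.1 ± 0.570 CPM (SD, n = 2) in shUSP9X. The log2 fold change was -3.85 (SE 0.06, adjusted p = 4.65e-26, edgeR's quasi-likelihood test with Benjamini-Hochberg adjustment), and -2.31 with an offset for GC content and length. The cell type label was checked on 15 markers of ovarian surface epithelium and mesothelium, of which Krt19 was the most abundant with 12190, 11246, 15535 and 12647 counts. Krt7 was at 0 in both shCtrl libraries and at 2 and 3 counts in shUSP9X.

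The 32 genes were rare transcripts also in control cells. Together they took 610 and 585 counts in the shCtrl libraries and 43 and 51 counts in the shUSP9X libraries. Single genes ranged from 10 to 39 counts in shCtrl replicate 1 and from 10 to 43 in shCtrl replicate 2, with a median of 17 in each. Per transcript length, on the authors' FPKM scale, 28 of the 32 had a mean below 1 in shCtrl. The 4 above it were Gm14403 (1.93 FPKM), Mgp (1.47), 6720489N17Rik (1.11) and 3300002I08Rik (1.08). In shUSP9X, 13 genes had 0 counts in at least 1 library and 2 of them, Gm28557 and Gm8251, in both. In bulk RNA, fewer cells that transcribe a gene and less RNA per cell cannot be told apart.

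**Figure D1:**
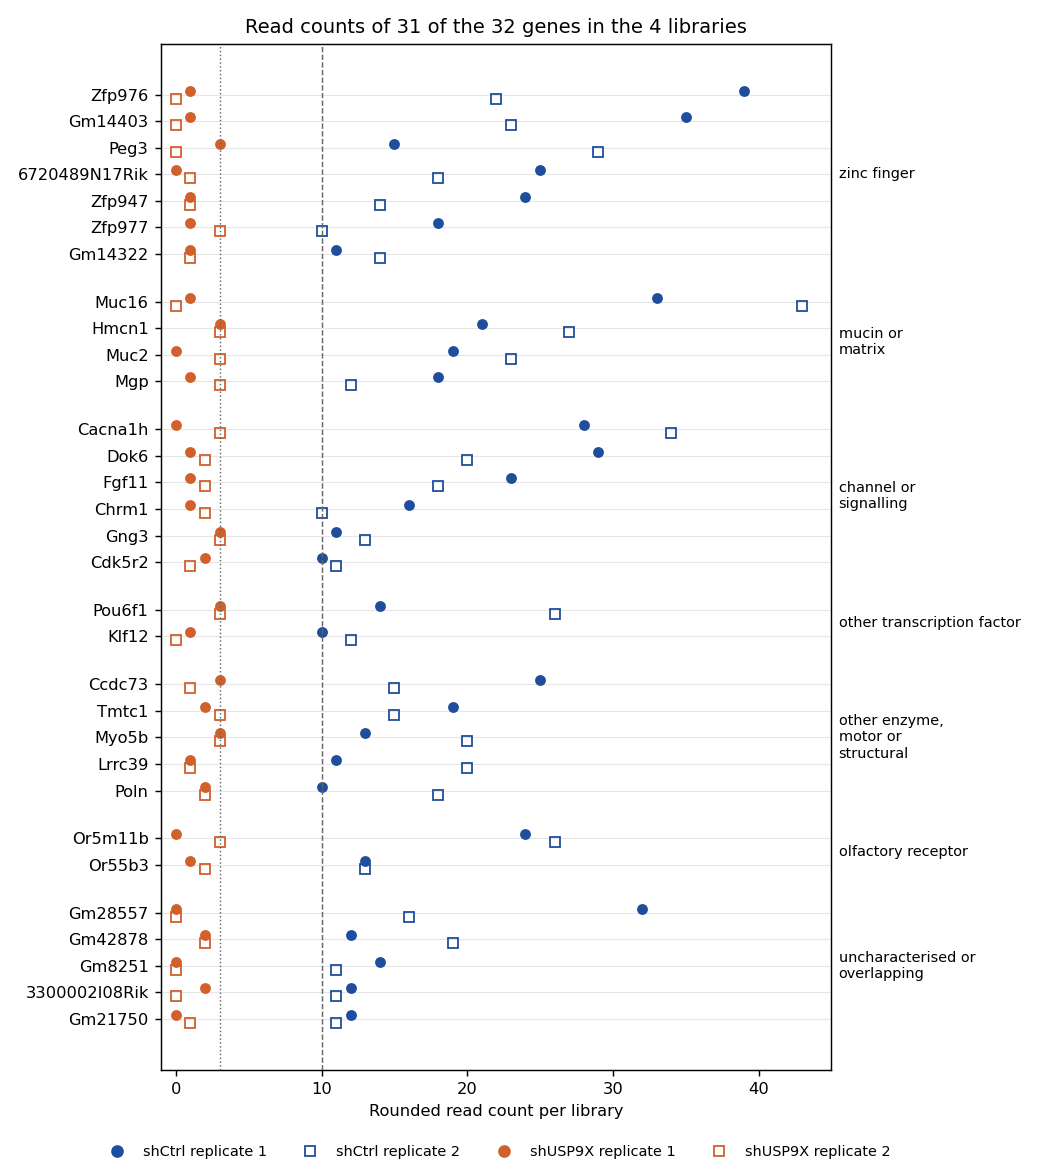
Rounded read counts (x axis) of 31 of the 32 genes (rows, grouped by what their products do) in shCtrl replicates 1 and 2 (blue) and shUSP9X replicates 1 and 2 (orange), 1 point per library. The dashed line marks the shCtrl minimum of 10 counts and the dotted line the shUSP9X ceiling of 3. No group overlaps another because the rule set the gap. Within shCtrl the points reach 43 counts for Muc16.

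Such a pattern was uncommon in the table. Of 11169 genes with 10 or more counts in both shCtrl libraries, 32 met the rule (0.287%). Of the 735 genes whose shCtrl counts lay within the range of the 32, from 10 to 43, the share was 4.35%. The reverse pattern, with the groups exchanged, was met by 69 genes, and the shUSP9X libraries were the deeper ones on average. None of the 69 was a C2H2 zinc finger gene by the definition used below, against 7 of the 32, and this difference was not tested. The number of genes depended on both limits. With a shCtrl minimum of 20 counts it was 7, with a minimum of 5 counts it was 120, and with a shUSP9X ceiling of 5 counts it was 64.

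**Figure D2:**
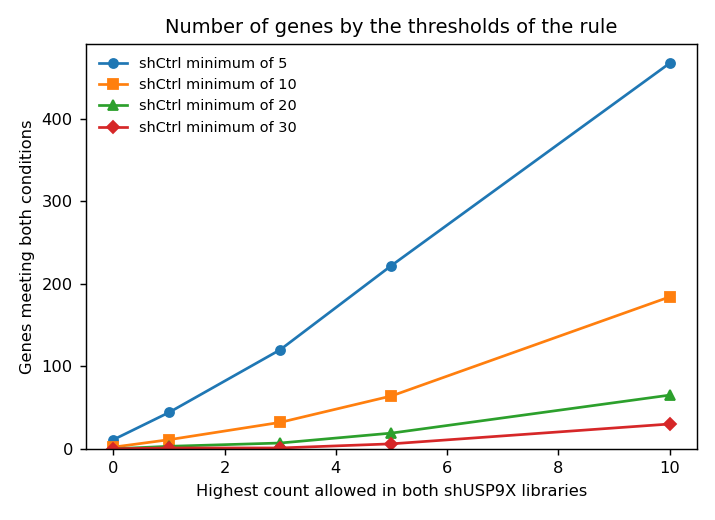
Number of genes that met both conditions (y axis) against the highest count allowed in both shUSP9X libraries (x axis), 1 line per shCtrl minimum (5, 10, 20 or 30 counts). At a minimum of 10 the line passes 2 genes at a ceiling of 0, 32 at 3, and 184 at 10.

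The limit cut through a continuum of low counts. In all, 22 of the 32 lay at its edge, with a shCtrl count of 10 or 11 or a shUSP9X count of 3. Hmcn1, Pou6f1, Myo5b and Gng3 had 3 counts in both shUSP9X libraries. Just outside, 13 genes missed 1 of the 4 conditions by 1 count. In shCtrl, 6 of them stopped at 9 counts in 1 library (Ccdc173, Muc6, St18, Cacna1a, Grin1 and Trp63). Ccdc173, for example, had 9, 11, 0 and 0 counts in the order shCtrl 1, shCtrl 2, shUSP9X 1 and shUSP9X 2, the order used for all counts below. The other 7 had 4 counts in 1 shUSP9X library (Egf, Far2, Kifc2, Nxph4, Tle2, Tmem44 and Gm26992). Far2 (53, 48, 4 and 0) and Tle2 (33, 25, 4 and 0) thus had more control counts than most of the 32, and were left out by 1 read.

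**Figure D3:**
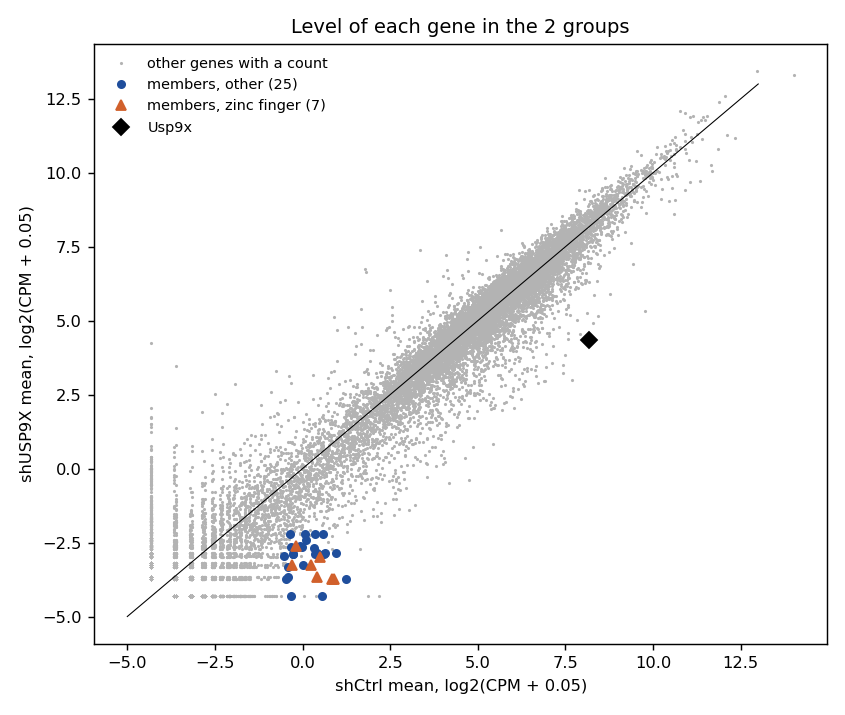
Mean level in shUSP9X (y axis) against shCtrl (x axis), both as log2(CPM + 0.05), for all genes with a count (grey), the 7 zinc finger genes of the rule (triangles), the other 25 (circles) and Usp9x (diamond). The line marks equal levels. The 32 genes form a low patch between 0.636 and 2.31 mean CPM in shCtrl, far below Usp9x at 290 CPM.

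By role, the zinc finger genes came first. A C2H2 zinc finger is a short fold in which a pair of cysteines and a pair of histidines hold a zinc ion. The pattern of these residues was counted in the translated transcripts, and genes with 3 or more copies were called zinc finger genes. Of the 32, 7 qualified (21.9%), with 8 to 18 copies each, against 448 of the 11448 genes tested (3.91%) and 38 of the 703 genes outside the rule with shCtrl counts in the same range (5.41%). Zfp976 (chr7:42609526-42642588) was the zinc finger gene with the most control counts. It had 39, 22, 1 and 0 counts, a ratio of 67.4 (95% exact interval 11.6 to 2704). Each ratio compares the summed counts of a group over its summed TMM-adjusted library sizes. This and the like intervals below cover counting error only, and since the same counts chose the genes, an interval above 1 is no test that the groups differ. Both shCtrl libraries lay above both knockdown libraries, as the rule required. Zfp977, which lies 16.98 kb from it on chromosome 7, had 18, 10, 1 and 3 counts. Gm14403 (chr2:177498215-177509763) had 35, 23, 1 and 0 counts, a ratio of 64.1 (interval 11.1 to 2573). Gm14322, which lies 249.5 kb from it, had 11, 14, 1 and 1 counts. These 4 genes thus came from 2 clusters.

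6720489N17Rik (chr13:62603013-62624182) had 25, 18, 0 and 1 counts, a ratio of 47.5 (interval 8.08 to 1919). Its 2 shCtrl libraries changed order between scales, with 0.801 and 1.41 FPKM. Zfp947, in a cluster on chromosome 17, had 24, 14, 1 and 1 counts, a ratio of 21.0 (interval 5.42 to 180). Peg3 (chr7:6703892-6730431) is an imprinted gene, transcribed from the paternal copy, whose product binds DNA and is known for roles in growth and maternal behaviour. It had 15, 29, 3 and 0 counts, a ratio of 16.2 (interval 5.19 to 81.6). Peg3 was the zinc finger gene whose control libraries were farthest apart, with replicate 1 at 0.472 times the CPM of replicate 2. In 5 of the 7 genes shCtrl replicate 1 was the higher library, and over all 32 genes replicate 1 was higher in 14 and replicate 2 in 18.

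Reads of these genes are hard to place. In 6 of the 7 zinc finger genes, more than 20% of the stretches of 31 bases in their transcripts also occurred in another gene, and 7 of the other 25 genes had as much. Among the zinc finger genes the highest shares were 91.0% in Gm14322, mostly with Gm14418, and 57.0% in Gm14403. Zfp976 shared 35.9% and Zfp947 36.7%. Peg3 was the exception with close to none. For the 6, the counts can depend on how the authors' estimate split reads among near copies, which was not tested, and their values are uncertain for that reason. The median GC content of the 7 was 39.5%, against 47.9% in the other 25 and 50.1% in all genes tested.

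The promoters of 5 of these zinc finger genes held a common block of sequence, shown here because it links members on different chromosomes. Promoter sequences (250 bases before the start of transcription, 1 per gene, RefSeq on GRCm38.p6) were on hand for 21 of the 32 genes. Each line gives the block in capitals with its flanks in lower case, read 5′ to 3′ on the strand of the gene. The sequence of Zfp976 is at chr7:42642637-42642723 and that of Zfp977 at chr7:42592594-42592680, both on the minus strand. Those of Gm14403 (chr2:177498075-177498161) and Gm14322 (chr2:177759134-177759220) are on the plus strand. The last (chr13:62624198-62624284) is on the minus strand.
Zfp976: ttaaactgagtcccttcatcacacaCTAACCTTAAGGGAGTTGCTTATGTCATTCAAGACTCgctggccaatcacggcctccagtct
Zfp977: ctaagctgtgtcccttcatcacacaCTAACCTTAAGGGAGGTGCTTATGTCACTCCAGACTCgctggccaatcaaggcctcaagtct
Gm14403: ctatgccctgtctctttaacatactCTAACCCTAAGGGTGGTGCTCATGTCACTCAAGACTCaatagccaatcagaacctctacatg
Gm14322: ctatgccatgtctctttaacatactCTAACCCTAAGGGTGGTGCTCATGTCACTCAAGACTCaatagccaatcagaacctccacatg
6720489N17Rik: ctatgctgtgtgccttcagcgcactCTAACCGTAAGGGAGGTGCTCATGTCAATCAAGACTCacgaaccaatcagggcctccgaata

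The block was read from Zfp976, Gm14403 and 6720489N17Rik, 1 gene per chromosome, as the letters the 3 share, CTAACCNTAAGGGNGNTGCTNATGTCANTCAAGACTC, where N is any base. The 3 were picked after the sequences had been seen, and hold the block by construction. Of its 37 positions 32 are fixed, and up to 3 mismatches on either strand were allowed. Gm14322 matched it in full and Zfp977 with 1 mismatch. It began between 77 and 129 bases before the start of transcription in the 5 genes. Among 27025 promoters searched, 45 held the block (0.167%), and 42 of the 43 table genes with it were zinc finger genes. The zinc finger genes Zfp947 and Peg3 did not hold these letters in this window. In all 5 sequences the letters CCAAT follow the block in lower case.

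Outside the rule, the genes with this block stood low as well. All 30 that could be tested were lower in shUSP9X at an adjusted p under 0.05 and none was higher, with a median log2 fold change of -1.99. In all genes tested the share lower was 33.6% (3843 of 11448), the share higher was 33.7% (3863), and the median was at 0.00 to 2 decimals. With an offset for GC content and length, 16 of the 30 stayed lower and none was higher (median -0.91), where the offset called 27.9% of all genes lower and 35.2% higher. Zinc finger genes without the block were lower in 250 of 412 cases and higher in 47 (median -0.60), and with the offset in 154 (37.4%) and 64 (median -0.22). Those below 42% GC, with or without it, were lower in 185 of 190 cases and higher in 1 (median -2.02). With the offset 111 of the 190 were lower (58.4%, against 53.3% of the genes with the block) and 20 higher (median -0.94). Whether the block genes differ from the other zinc finger genes was not tested. The block was found in members of the rule, so these counts describe their relatives and are not independent evidence.

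Short motifs were counted in the 21 promoters, each searched on both strands within the 250 bases. CCAAT, the box bound by NF-Y, was in 13 of the 21 (61.9%), against 34.5% of all promoters, and 5 of the 13 were the genes with the block. CAGAC, a Smad-binding element, was in 13 (61.9%) against 42.1%. ACGTG, the core of the hypoxia response element, was in 4 (19.05%) against 16.6%, and TATAAA was in 2 (9.52%) against 12.97%. CAGAC and ACGTG can overlap by 2 letters. A match of such short words is a description of sequence and not a site.

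Zinc finger genes that lie near the 32 genes were mostly lower, as were zinc finger genes elsewhere. Within 250 kb of any of the 32 genes lay 362 other genes of the table, of which 203 could be tested. Of these, 78 were lower in shUSP9X (38.4%) and 62 were higher, with a median log2 fold change of -0.04. In all genes tested the shares were 33.6% and 33.7%. With the offset 71 of the neighbours were lower (35.0%) and 58 higher, against 27.9% and 35.2% of all genes. The 34 tested zinc finger genes among the neighbours were lower in 32 cases and higher in none, with a median of -2.30. They include those near Gm28557, 3300002I08Rik, Fgf11 and Muc16, which are not zinc finger genes by the residue count, and none near Peg3, whose single zinc finger neighbour had 0 counts in all libraries. With the offset 18 of the 34 were lower (52.9%) and 1 higher (median -1.10). Zinc finger genes that were not neighbours were lower in 247 of 407 cases (60.7%) and higher in 47 (median -0.59). With the offset 151 of these 407 were lower (37.1%) and 63 higher (median -0.19). Of all zinc finger genes outside the rule below 42% GC, 97.4% were lower, and 58.4% with the offset. Whether nearness to the 32 genes mattered was not tested. The 169 other neighbours were lower in 46 cases (27.2%) and higher in 62, with a median of 0.05. The 44 zinc finger neighbours, tested or not, summed to 4839 and 3781 counts in shCtrl and to 1240 and 1048 in shUSP9X.

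**Figure D4:**
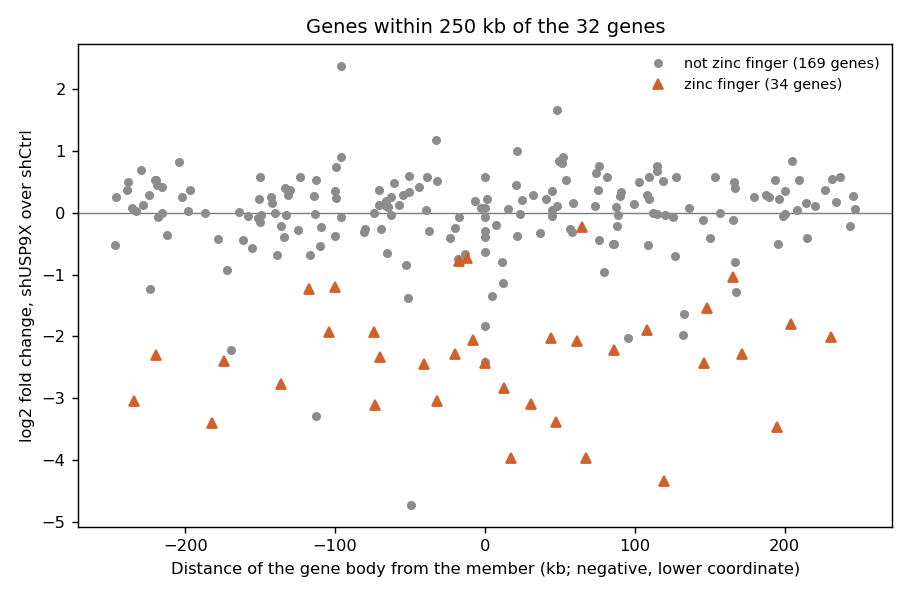
log2 fold change of shUSP9X over shCtrl (y axis, edgeR) of the tested genes within 250 kb of the 32 genes, against the distance of the gene body from the nearest edge of the gene of the rule (x axis, kb, negative towards lower coordinates). A gene near several members has a point for each. Zinc finger genes (triangles, 34) lie below 0, though with the offset 1 of them was higher, and the other genes (grey, 169) scatter about 0 with a few low points.

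Around Zfp947 on chromosome 17, all 7 tested zinc finger neighbours were lower, with log2 fold changes from -4.34 to -2.28. Gm7072, the lowest of them, had 487, 344, 26 and 19 counts (log2 fold change -4.34, SE 0.19, edgeR adjusted p = 1.10e-16). Zfp758 (206, 184, 23 and 16 counts) stood at -3.46, Zfp942 (388, 268, 33 and 35) at -3.40, Zfp943 (265, 191, 29 and 29) at -3.11 and Zfp994 (147, 147, 22 and 16) at -3.09. These neighbours had several times the control counts of Zfp947 itself, so that their lower counts were read at greater depth. Around 6720489N17Rik on chromosome 13, all 5 tested zinc finger neighbours were lower, and 3 of them with the offset. Platr25 (151, 98, 9 and 17 counts) was at -3.38 and Zfp934 (122, 96, 22 and 7) at -3.05. Around Zfp976 and Zfp977, both tested neighbours were lower, and Zfp975 (90, 55, 4 and 6 counts) reached -3.96 (SE 0.43, edgeR adjusted p = 8.08e-09). Around Gm14403 and around Gm14322, both tested neighbours were lower (medians -1.74 and -1.55), but 1 of 2 in each with the offset (medians -0.59 and -0.74). With the offset the 8 neighbours named here stayed lower, between -2.81 (Gm7072) and -1.59 (Zfp934).

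In 2 further clusters the members were not zinc finger genes by the residue count but lie among them. Gm28557 (chr13:67069399-67108604) is annotated as a protein-coding gene that shares 50.02% of its exon bases with Zfp708 on the same strand. With other genes counted too, 74.6% of its exon bases overlap on that strand and 73.8% of its 31-base stretches occur elsewhere, so reads in them cannot be told from those of these genes. It had 32, 16, 0 and 0 counts. Against a floor of 3 counts over the group it was at least 17.7-fold higher in shCtrl. Of the 8 tested zinc finger genes around it 7 were lower (median -2.13), and Zfp708 itself was among them (-2.43, edgeR adjusted p = 0.000311). With the offset 1 of the 8 was lower and 1 higher (median -0.76), and the call of Zfp708 was lost (-1.15, edgeR adjusted p = 0.0768). 3300002I08Rik on chromosome 2 had 12, 11, 2 and 0 counts. It shares 14.5% of its 31-base stretches with Zfp442, and all 6 tested zinc finger genes around it were lower (median -2.17). With the offset 2 of the 6 were lower and none higher (median -0.86), and Zfp442 stood at -0.67 (edgeR adjusted p = 0.0642).

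Over the genome, the 441 tested zinc finger genes outside the rule were lower in 279 cases and higher in 47, with a median of -0.67. This set was drawn up after the values of the 32 genes were seen. Composition moved with it. Across all genes tested, the median log2 fold change was -1.39 below 38% GC (186 genes), -0.94 from 38% to 40% (414 genes), -0.03 from 45% to 50% (2968 genes) and 0.23 above 55% (2808 genes). Among 1059 tested genes below 42% GC that were neither zinc finger genes nor among the 32, 835 were lower and 70 higher (median -0.70). With the offset 247 of these were lower and 597 higher (median 0.35). With the offset for GC content and length, the zinc finger genes were lower in 169 cases and higher in 64 (median -0.26). Of the zinc finger genes that share under 5% of their sequence with another gene, 124 of 237 were lower and 37 higher (median -0.39). With the offset this set was at 71 lower (29.96%) and 48 higher (median -0.09), where 27.9% of all genes were lower. Those that share over 20%, as 6 of the 7 in the rule do, were lower in 93 of 111 cases and higher in 2 (median -1.93), and with the offset in 61 and 4 (median -0.90). Whether the GC trend arose in the cells or in the libraries was not tested.

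**Figure D5:**
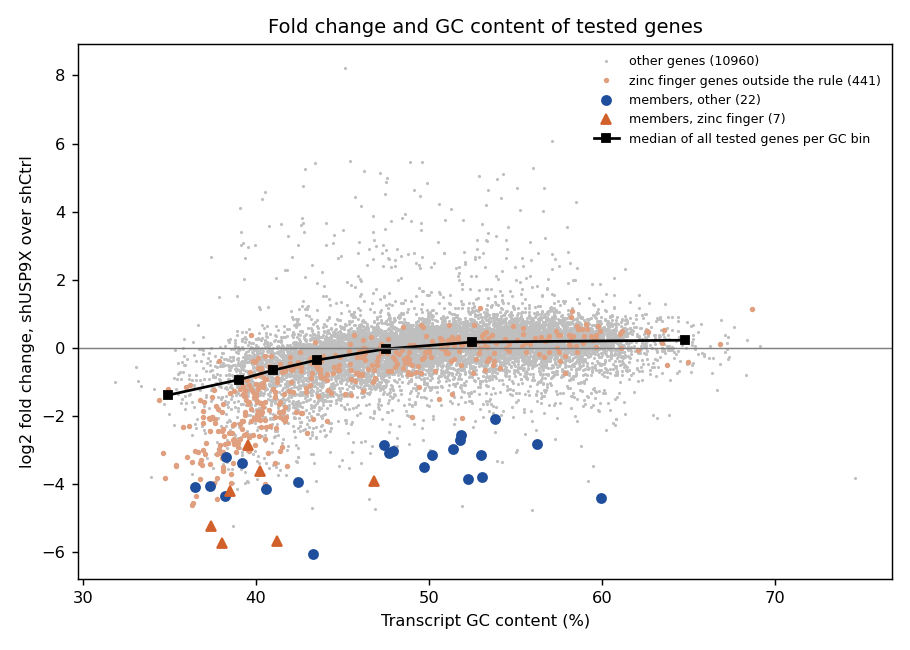
log2 fold change of shUSP9X over shCtrl (y axis, edgeR) against the GC content of the transcript (x axis, %) for all genes tested with a known GC content. Genes at 0 in a group are drawn at the bound that a floor of 3 counts gives. Squares join the medians of all genes per GC bin, from -1.39 below 38% to 0.23 above 55%. The tested zinc finger genes of the rule (triangles, 7) and the other tested genes of the rule (circles, 22) lie below that line by choice, the zinc finger genes mostly below 42% GC.

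The mucin and matrix genes formed the next group. Muc16 (chr9:18495455-18674530, minus strand) had the highest control level of the 32 genes by CPM. It had 33, 43, 1 and 0 counts, a ratio of 83.9 (95% exact interval 14.6 to 3358). Muc16 is also 1 of the 15 markers of ovarian surface epithelium and mesothelium. Of the other 13 markers that could be tested, 6 were lower and 4 were higher, against 33.6% and 33.7% of all genes tested. The list thus moved both ways, as did all genes tested. Lrrn4 was the lowest of them (23, 17, 9 and 5 counts, log2 fold change -1.64, edgeR adjusted p = 0.00738), a call lost with DESeq2 (adjusted p = 0.106) and without shUSP9X replicate 2 (edgeR adjusted p = 0.0716). Krt8 was the highest (5441, 5119, 11905 and 10141 counts, 0.92). Muc2 (chr7:141690340-141754693), the secreted gel-forming mucin of the intestine, had 19, 23, 0 and 3 counts, a ratio of 15.5 (interval 4.94 to 78.0). Muc6, another gel-forming mucin, missed the rule by 1 count with 9, 11, 3 and 0. Of the 12 other Muc genes, 9 had no more than 3 counts in any library and 1 could be tested.

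Hmcn1 (chr1:150562524-150993435) encodes hemicentin 1, a very large extracellular matrix protein. It had 21, 27, 3 and 3 counts, a ratio of 8.84 (interval 3.78 to 25.3). Mgp encodes matrix Gla protein, an inhibitor of calcification, and had 18, 12, 1 and 3 counts. Per transcript length Mgp was the second highest of the 32, at 1.69 and 1.25 FPKM in shCtrl and 0.081 and 0.286 in shUSP9X. Near Hmcn1 on chromosome 1, Tpr, the filament protein of the nuclear pore basket, was lower from a high level, with 6141, 5310, 655 and 634 counts (log2 fold change -3.29, SE 0.06, edgeR adjusted p = 2.58e-25). Prg4, which encodes lubricin and lies on the same side of Hmcn1, was higher at 2.37. The neighbourhood thus moved both ways.

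Genes for channels and signalling proteins made up 7 of the 32. Cacna1h (chr17:25374285-25433783), the T-type calcium channel Cav3.2, had 28, 34, 0 and 3 counts, a ratio of 22.8 (interval 7.46 to 114). Chrm1, the M1 muscarinic acetylcholine receptor, had 16, 10, 1 and 2 counts. Gng3 encodes a G protein gamma subunit of neurons. It was the weakest of the 32 with 11, 13, 3 and 3 counts, a ratio of 4.42 (interval 1.76 to 13.2), and 24.2% of its exon bases are overlapped by Bscl2 on the opposite strand. The library kit named in the labels does not mark strand, so that reads of the overlap could not be told apart. Gng3 and Chrm1 lie 153 kb apart on chromosome 19.

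Dok6 (chr18:89292424-89769528), an adaptor of the RET receptor tyrosine kinase, had 29, 20, 1 and 2 counts, a ratio of 18.04 (interval 5.82 to 90.5). Fgf11, an intracellular member of the fibroblast growth factor family, had 23, 18, 1 and 2 counts. Cdk5r2, which encodes the p39 activator of Cdk5, had 10, 11, 2 and 1 counts. Since these genes are best known from neurons, neuron markers were set beside them. Of 10 such markers 4 were at 0 in all libraries (Nefm, Nefl, Rbfox3 and Stmn2) and 3 could be tested. Their summed level was 22.9 and 24.9 CPM in shCtrl and 21.5 and 20.6 CPM in shUSP9X, led by Tubb3, which was lower (241, 239, 223 and 181 counts, -0.39, and -0.71 with the offset). Map2 was lower as well (65, 57, 17 and 31 counts, -1.47). Syn1 was higher (82, 93, 185 and 127, 0.68), a call lost without shUSP9X replicate 1 (edgeR adjusted p = 0.0641). Cacna1a and Grin1, a calcium channel and a glutamate receptor subunit, each missed the rule by 1 count.

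Besides the zinc finger genes with many fingers, 2 transcription factors met the rule. Pou6f1, a POU homeodomain factor, had 14, 26, 3 and 3 counts, a ratio of 7.36 (interval 3.10 to 21.2). Klf12, a Krüppel-like repressor, had 10, 12, 1 and 0 counts, a ratio of 24.3 (interval 3.93 to 1003). Klf12 was with Poln and Cdk5r2 among the 3 genes that were too low to pass the expression filter of the test, which the other 29 passed through their shCtrl counts.

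Enzymes, a motor and structural proteins gave 5 genes. Ccdc73, a coiled-coil protein, had 25, 15, 3 and 1 counts. Tmtc1, which transfers mannose to cadherins in the endoplasmic reticulum, had 19, 15, 2 and 3 counts, and the gene beside it, Far2, a fatty acyl-CoA reductase, was nearly a member itself (log2 fold change -4.72, SE 0.58, edgeR adjusted p = 7.47e-08). Tmtc1 and Far2 are thus a pair of neighbours that were both low after knockdown. Myo5b, a myosin motor of recycling endosomes on chromosome 18, had 13, 20, 3 and 3 counts. Poln, a DNA polymerase of the A family, had 10, 18, 2 and 2 counts. Its gene body overlaps that of Haus3, a subunit of the augmin complex of the spindle, which was lower at -2.42 (-1.10 with the offset). Lrrc39, a protein of the sarcomere, had 11, 20, 1 and 1 counts, and 35.8% of its exon bases lie under genes on the opposite strand. Of 11 muscle markers 7 were at 0 in all libraries. Their summed level was 57.7 and 51.3 CPM in shCtrl and 77.3 and 84.2 in shUSP9X, nearly all Tnnt2, which was higher (947, 757, 1475 and 1387 counts, 0.61, and 0.19 with the offset).

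Olfactory receptor genes, which code for odorant receptors of the nose, were met 2 times. Or5m11b (chr2:85973895-85978913) had 24, 26, 0 and 3 counts, a ratio of 18.4 (interval 5.95 to 92.3), and shares 23.7% of its 31-base stretches with other genes. Or55b3 had 13, 13, 1 and 2 counts. Uncharacterised genes closed the list. Gm8251 (chr1:44055952-44061936) had 14, 11, 0 and 0 counts, at least 9.20-fold higher in shCtrl against the floor. Gm21750 had 12, 11, 0 and 1 counts and shares 71.0% of its stretches with other genes. Gm42878 had 12, 19, 2 and 2 counts, but 99.9% of its exon bases are also exons of Adam1a on the same strand, and the 2 cannot be told apart.

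Position grouped few of the 32. They lay on 14 chromosomes, with 6 on chromosome 2, 5 on chromosome 7 and none on the X chromosome. The X chromosome held only 3.14% of all genes tested and 4.41% of the 703 genes of the same shCtrl count range outside the rule. None of 32 is near those shares, and shares of all genes on chromosomes 2 and 7 were not taken. Only 3 pairs were within 250 kb of each other, namely Zfp976 with Zfp977, Gm14403 with Gm14322, and Chrm1 with Gng3. The median transcript length was 3415 bases, against 3196 in all genes tested. GC content ranged from 36.5% to 63.9% with a median of 46.3%, against 51.8% in the 703 genes of the same shCtrl count range outside the rule.

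Relatives of the 32 by gene name were described as well. The 14 name families that could be formed held 156 other genes, of which 68 could be tested, 27 lower (39.7%) and 20 higher, with a median of -0.14. In all genes tested the shares were 33.6% and 33.7%. With the offset the relatives were lower in 23 cases (33.8%) and higher in 21, against 27.9% and 35.2% of all genes. All 3 tested relatives of Tmtc1 were lower, among them Tmtc3 (1597, 1387, 475 and 473 counts, -1.79). With the offset 2 of the 3 were lower and Tmtc3 stood at -0.39. Of the 11 tested relatives of Klf12 8 were lower and 2 higher (7 and 2 with the offset), with Klf7 (389, 273, 157 and 118) at -1.41 (-0.85 with the offset) and Klf9 (1691, 1457, 840 and 740) at -1.14. The relatives of Myo5b were split, 5 lower and 6 higher of 15, and 3 and 6 with the offset. Myo9a (1086, 1053, 131 and 107 counts) was at -3.31 (-2.13 with the offset) and Myo5a (3029, 2700, 1617 and 1362) at -1.09 (-0.34 with it), whereas Myo1f, a myosin of leukocytes, went from 0 and 1 counts to 18 and 11.

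Among the signalling genes, Cdk5r2 had 24 tested relatives, 7 lower and 7 higher, and Gng3 had 4, 1 lower and 1 higher. Dok6 had 4, none lower and 3 higher, Fgf11 had 3, 1 lower and 1 higher, and Cacna1h had 1. With the offset the lower and higher relatives were 8 and 8 for Cdk5r2, 1 and 2 for Gng3, 0 and 2 for Dok6, and 1 and 1 for Fgf11. Cacna2d1 (814, 735, 334 and 265 counts) was at -1.52, and at -0.34 with the offset. Fgf13 (1282, 1134, 2169 and 1888 counts) was higher at 0.61, and at 0.69 with the offset. Fgf2 (13, 14, 2 and 5 counts) was at -2.05, a call lost with DESeq2 (adjusted p = 0.123), with the offset (edgeR adjusted p = 0.116), without shUSP9X replicate 1 (0.154) and with no filter beyond 1 count (0.0532). Dok2 (13, 34, 75 and 52 counts) was higher at 1.27, a call lost without shCtrl replicate 1 (edgeR adjusted p = 0.0858). Of the 2 tested relatives of the transcription factor Pou6f1, Pou2f1 (1026, 1023, 552 and 495 counts) was at -1.11, and at -0.09 with the offset. None of the 4 other muscarinic receptor genes exceeded 3 counts in any library.

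The genes most like the 32 were taken as those with the lowest log2 fold change over the 4 libraries among genes with 10 or more counts in both shCtrl libraries. Of these 10, 4 were zinc finger genes. Zfp808 (139, 131, 6 and 6 counts) was at -4.61, Zfp820 (166, 138, 9 and 5) at -4.56, Zfp40 (129, 75, 2 and 8) at -4.44 and Gm32687 (66, 88, 0 and 8) at -4.36, the last with an adjusted p of 0.0664 in DESeq2. Proliferation and spindle genes were there from far higher levels, with Mki67 (15778, 13287, 789 and 676 counts) at -4.45 and Cenpf (3725, 3069, 124 and 164) at -4.70. Cep290, a centrosomal and ciliary protein (485, 402, 13 and 13 counts), was the lowest at -5.22. The immediate early genes Fosb (279, 315, 13 and 11) and Fos (710, 711, 29 and 34) stood at -4.76 and -4.63, and Far2 completed the 10. With the offset all 10 stayed lower, the 4 zinc finger genes between -3.20 and -3.00, Cep290 at -3.66 and Cenpf at -3.69.

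Among the markers of other cell types, the leukocyte list had the most genes higher in shUSP9X. Of 16 leukocyte markers, 8 were at 0 in both shCtrl libraries and counted in both shUSP9X libraries, among them Ptprc (0, 0, 29 and 18 counts), Adgre1 (0, 0, 58 and 59) and Itgam (0, 0, 72 and 75). The list summed to 4.32 and 4.62 CPM in shCtrl and to 22.8 and 22.0 CPM in shUSP9X. Of 8 tested, 7 were higher and none lower, against 33.7% and 33.6% of all genes tested. The median log2 fold change of the list was 4.07 when genes at 0 were set to the floor. Its most abundant gene was Cd68 (74, 68, 118 and 85 counts), while Cd3e, C1qa, C1qb and H2-Ab1 were at 0 in all libraries. The part of these markers in the low counts of the 32 genes was not tested.

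The remaining lists held few of the 32. In all genes tested 33.6% were lower and 33.7% higher, and with the offset 27.9% and 35.2%. Of 12 fibroblast and stromal markers 6 could be tested, 3 lower and none higher (median -0.36), with 257 and 264 CPM in shCtrl and 152 and 149 in shUSP9X. With the offset 2 were lower (median -0.47). Dcn was the most abundant (2919, 2634, 2434 and 2032 counts, -0.46, and -0.07 with the offset), Pdgfra (272, 215, 34 and 39) the lowest at -2.87, and Pdgfrb, Thy1 and Lum were at 0. Of 10 endothelial markers 2 could be tested and Tek was lower (172, 165, 109 and 105 counts, -0.80), with 5 markers at 0 and a sum of 10.96, 11.8, 7.13 and 7.54 CPM. No erythroid marker could be tested, and Klf1 led that list with 2, 7, 2 and 2 counts (sums of 0.346, 0.696, 0.607 and 0.890 CPM). Of 25 imprinted genes listed, 19 were in the table, and 12 had no more than 3 counts in any library. Besides Peg3, which the rule chose, Impact, Igf2r and Gnas could be tested. Impact was at -0.31 (978, 810, 888 and 700 counts) but at 0.32 with the offset. Igf2r was at -0.28 (4220, 3937, 3826 and 3596) but at 0.01 with the offset, and Gnas at 0.15 (10358, 9862, 13397 and 11396) but at -0.02 with it.

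None of the 32 genes was on the lists for the pathways named in the study's title. Of 25 genes listed as induced by TGF-β or as part of its pathway, 18 could be tested. Of these, 12 were lower and 3 higher (median -0.61), against 33.6% and 33.7% of all genes. Among the 12 were Bmpr2, Acvr2a and Thbs1, which the paper names as reduced in USP9X knockdown ID8 cells. Those 3 were thus reported as low before this count, which is no independent evidence for them. With the offset 8 of the 18 were lower and 2 higher (median -0.15). The list summed to 3014 and 3104 CPM in shCtrl and to 1664 and 1690 in shUSP9X. Fn1, the most abundant, had 26826, 25023, 10291 and 9253 counts, and Col1a1 (1174, 1245, 452 and 362) was the lowest at -1.72. Of 20 hypoxia and HIF target genes 17 could be tested, 9 lower and 4 higher (median -0.25). They summed to 5980 and 5923 CPM in shCtrl and to 5609 and 5548 in shUSP9X, led by Ldha (33171, 30155, 35919 and 30204 counts), with Bnip3 (432, 413, 110 and 94) lowest at -2.19 (-1.63 with the offset) and Epo at 0. With the offset 11 of this list were lower and 4 higher (median -0.35).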

How the data were processed

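The authors sequenced poly(A) RNA of ID8 cells on an Illumina NovaSeq and mapped it to GRCm38. The submitters' processing notes name fastp 0.18.0, Bowtie2 2.2.8, HISAT2, StringTie 1.3.1 and RSEM, and the annotation release is not given in the sources used here. The values the authors deposited are estimated counts of each gene, not normalized, and FPKM values, which are scaled for length and library size.

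The 32 genes and the lists were chosen with earlier results of these data known. The analysis had been planned on counts, and since the deposited counts were estimated ones they were rounded. Genes passing filterByExpr were normalized by TMM and tested with edgeR 4.0.16 (R 4.3.3) by its quasi-likelihood test, all 4 libraries, Benjamini-Hochberg adjustment at 0.05. On simulated data at the same 11448 genes, 49 of 50 genes set to a log2 change of -1 were recovered, and 6 of 11248 unchanged genes were called. The simulation gave every gene the same variability between libraries and had no GC trend, unlike these data. It therefore gives no rate of false calls for these data. An offset per library was fitted by loess (span 0.3) on GC content and then length. Coordinates, GC content and shared 31-base stretches came from GENCODE M21 (GRCm38), which held 21973 of the table's genes and all 32. Ratios are of summed counts per group over summed TMM-adjusted library sizes, with 95% Clopper-Pearson intervals. PCR duplicates are not marked by molecular identifiers, so intervals and floors cover counting error only.

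Of the 32 genes 31 were named. The values of 1 of the 32 and of 1 list gene are not reported here. Named beside them were genes that missed the rule by 1 count, the 10 called neighbours (within 250 kb) and the 10 called relatives with the largest fold change, the called list genes with the largest fold change each way, and the 10 genes with the lowest fold change outside the rule. Relatives share the letters of the symbol before its first digit. Zinc finger genes, Tle2, Prg4, Haus3, Zfp708, Ptprc, Adgre1, Fgf13 and Igf2r were added after their values were seen. The lists were markers of ovarian surface epithelium, leukocytes, fibroblasts, endothelium, neurons, muscle and erythroid cells. Further lists were genes induced by TGF-β or of its pathway, hypoxia and HIF targets, and imprinted genes.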

Additional observations from a re-analysis of the deposited data

How the results depend on the processing

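The number of genes under the rule was 120 with a shCtrl minimum of 5 counts, 7 with a minimum of 20, 2 with a shUSP9X ceiling of 0 and 64 with a ceiling of 5. It was 32 on counts that were not rounded and 35 on counts scaled to equal library size. With each library left out of the rule in turn it ranged from 61 to 75. Neighbours within 100 kb were lower in 42 cases and higher in 30, and within 1000 kb in 192 and 208. Without zinc finger genes, a choice made after seeing the data, 46 neighbours were lower. Zinc finger genes outside the rule were lower in 169 cases with the GC content and length offset and in 124 among genes with under 5% shared sequence, and higher in 31 with DESeq2. For all genes, DESeq2 1.42.0 called 2985 lower and 3184 higher. A fit with the replicate number as a block gave 3810 lower and 3855 higher, and moved no count of the neighbours, families or zinc finger genes by more than 1. The deviations of same-numbered libraries correlated at -0.0453, so no pairing by number across the groups was seen. Impact moved to 0.32 and Gnas to -0.018 with the offset. Some log2 fold changes of genes with low shUSP9X counts moved when shUSP9X replicate 1 or replicate 2, in this order, was left out. Far2 moved to -8.67 and -3.87, Gm32687 to -3.28 and -9.37 and Zfp40 to -3.67 and -5.82. Zfp934 moved to -3.96 and -2.55, and Platr25 to -2.88 and -4.02. Where a library was left out, the lone library of its group was assumed to vary like the other group. At 10 to 43 control counts, counting error leaves a wide interval on each ratio.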
